A study of Mus musculus with 3 samples.

Results

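The wild type (WT) library of the series was taken on its own, to describe which genes the sorted endothelial cells expressed and at what level. Endothelial cells line blood vessels, and some of them in the early embryo also give rise to blood cells. The WT cells were mouse embryonic stem (ES) cells grown for 4.75 days as embryoid bodies, floating aggregates in which ES cells form cells of all germ layers. They were then sorted as Tie2+CD31+CD41-, so that they carried the angiopoietin receptor Tie2 (gene Tek) and the adhesion molecule CD31 (Pecam1) and lacked CD41 (Itga2b), an integrin of megakaryocytes and of early blood cells. This library is 1 of 3. The other 2 came from cells of SclKO ES cells (Scl is the older name of Tal1) and of Gata1&2KO ES cells (group Gata12KO), cultured to the same day and sorted with the same antibodies. The labels list no further treatment, and they name neither the WT ES line nor its relation to the knockout lines. Each library is a bulk pool of sorted cells and each group holds 1 library, so no value has a replicate check and no p-value is given.

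Levels are FPKM, fragments per kilobase of transcript scaled to the library's mapped fragments, as deposited for each RefSeq transcript entry. A gene's level is the sum over its entries, and genes were kept where the longest exon sum was 300 nt or more. This left 22672 of the 23451 genes of the WT library. The bounds given in brackets are those deposited with each FPKM, summed over entries. They describe the estimate within 1 library, by counting and by the sharing of reads among entries, and cover no difference between cultures or preparations. FPKM is per length, so that levels of different genes can be set side by side, within the limits of each gene's model.

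The 5 markers given for these cells were all expressed, in the top decile of all genes (23.8 FPKM or more). Cdh5, the VE-cadherin of endothelial junctions, stood at 116 FPKM (bounds 114 to 118), rank 418 of 22672. Tek, the receptor used in the sort, stood at 62.9 FPKM (61.5 to 64.2), rank 875. Tal1, the basic helix-loop-helix factor required for blood formation, stood at 51.0 FPKM (49.7 to 52.3), rank 1089. Pecam1 and Kdr, the latter the main receptor for vascular endothelial growth factor (VEGF), were close behind. Pecam1 stood at 48.3 FPKM (46.0 to 50.7) and Kdr at 42.1 FPKM (41.1 to 43.1). Tek and Pecam1 encode the proteins the cells were sorted on, so that only Cdh5, Kdr and Tal1 were not themselves sorting targets. A sort also enriches genes expressed along with its targets, so these are not a fully independent check of the label. Itga2b, whose protein was selected against, was nonetheless read at 22.8 FPKM (21.9 to 23.8), rank 2355.

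As background, endothelium of the early embryo arises from mesoderm through progenitors that carry Kdr, under ETS-family factors such as Etv2. VEGF through Kdr, angiopoietins through Tek, and Notch and BMP signals then shape vessels and their arterial and venous identity. A subset, the hemogenic endothelium, turns on Runx1 and releases blood cells, and Tal1 with its partners Lmo2, Ldb1 and a GATA factor is central to that step. The same mesoderm also gives rise to heart muscle and endocardium, the inner lining of the heart.

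The markers lie on mm9 as follows. Tek is on the forward strand of chromosome 4, 94405991 to 94541630, with 23 exons, and Tal1 is on the same chromosome and strand, 114732132 to 114744360, with 4 exons in the entry used. Cdh5 is on the forward strand of chromosome 8, 106625525 to 106668402. Kdr is on the reverse strand of chromosome 5, 76329299 to 76374453, and Pecam1 on the reverse strand of chromosome 11, 106515532 to 106576595. Because ETS factors were among the most abundant transcription factors of this library, the 250 bases before the start sites of the markers that the RefSeq promoter table holds (Tek, Kdr and Tal1) are shown, from build GRCm38.p6. They are chr4:94739039-94739288 for Tek (forward strand), chr5:75978456-75978705 for Kdr (reverse strand), and chr4:115056176-115056425 and chr4:115057561-115057810 for 2 starts of Tal1 (forward strand). Sequences run 5′ to 3′ on the gene's strand, with the 4-base core of ETS sites, GGAA or its reverse complement TTCC, in capitals.
Tek: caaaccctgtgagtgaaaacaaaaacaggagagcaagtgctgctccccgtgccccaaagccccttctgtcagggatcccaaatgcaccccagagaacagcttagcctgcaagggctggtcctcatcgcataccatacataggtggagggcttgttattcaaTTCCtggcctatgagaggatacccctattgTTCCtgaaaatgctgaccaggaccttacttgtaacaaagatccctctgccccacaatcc
Kdr: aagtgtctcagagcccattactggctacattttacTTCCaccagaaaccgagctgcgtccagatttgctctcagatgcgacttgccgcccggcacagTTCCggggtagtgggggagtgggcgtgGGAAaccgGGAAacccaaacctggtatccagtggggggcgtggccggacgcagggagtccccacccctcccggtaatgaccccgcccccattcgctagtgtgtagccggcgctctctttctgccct
Tal1, first start: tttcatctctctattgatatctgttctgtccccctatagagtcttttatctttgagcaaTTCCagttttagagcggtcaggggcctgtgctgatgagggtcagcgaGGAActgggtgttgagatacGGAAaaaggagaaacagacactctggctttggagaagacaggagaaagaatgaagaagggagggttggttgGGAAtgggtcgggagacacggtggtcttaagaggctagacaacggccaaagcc
Tal1, second start: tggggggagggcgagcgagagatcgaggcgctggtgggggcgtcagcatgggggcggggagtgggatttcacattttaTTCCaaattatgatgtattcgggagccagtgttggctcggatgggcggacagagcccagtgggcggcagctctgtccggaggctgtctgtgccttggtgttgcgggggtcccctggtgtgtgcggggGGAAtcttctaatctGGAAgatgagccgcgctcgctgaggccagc
The core occurred 2 times before Tek, 4 times before Kdr, 4 times before the first start of Tal1 and 3 times before the second. It is a short motif: 93.4% of 32851 windows of 250 bases hold it, with a median of 3 matches, and 33.4% hold 4 or more. The match counts of these markers are thus those of an ordinary promoter window, and a match does not show a bound site.

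Of the 22672 genes, 10531 (46.4%) were at 1 FPKM or more, the level called expressed here. The median over all genes was 0.589 FPKM and over expressed genes 8.48 FPKM. 4754 genes stood at 10 FPKM or more and 481 at 100 FPKM or more, and 492 genes held 50% of the summed level. The highest were genes of protein synthesis, the cytoskeleton and iron storage. Eef1a1, the elongation factor that brings tRNA to the ribosome, led with 2967 FPKM, followed by the actin-binding peptide Tmsb10 with 2850. Tpt1 had 2223 FPKM, Rack1, a ribosome-bound scaffold, 2007, and the ferritin chains Fth1 and Ftl1 1347 and 1195. Gnas, the imprinted locus of the stimulatory G protein subunit, summed to 1616 FPKM. Of this, 87.5% (1413 FPKM) was on a non-coding entry and 12.4% (201 FPKM) on a coding entry, as the deposited estimates split the reads. Of the 20 highest, Rpl31-ps12, Rplp2-ps1, Eno1b and Snrpg have near-identical copies elsewhere, so that their levels are uncertain; the lower bound of Rplp2-ps1 is 0. 2 of the 20 have an accession and no symbol. A value of 0 is not evidence of silence in these files. In WT 81 of 86 ribosomal protein genes are listed at 0. Rplp0, one of them, is at 0 in all 3 libraries, although every cell uses such genes.

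**Figure D1:**
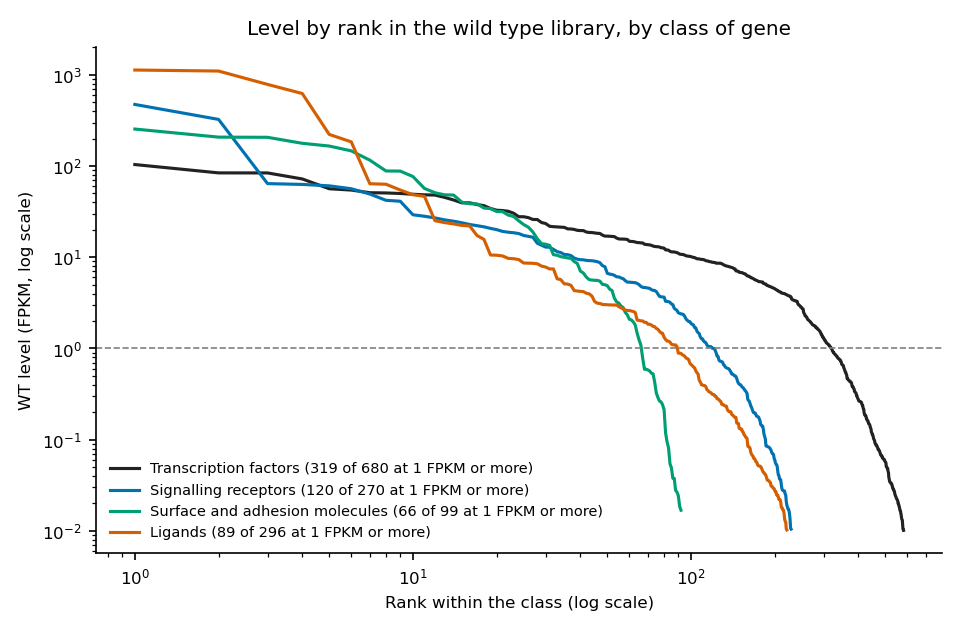
Level of each gene (vertical axis, FPKM, log scale) against its rank within its class (horizontal axis, log scale) in the WT library, for 4 classes of gene; genes under 0.01 FPKM are not drawn and the dashed line marks 1 FPKM. The ligand curve starts highest, with Mif at 1129 FPKM, and falls fastest, while the transcription factor curve starts at 104 FPKM and stays above 10 FPKM for 101 genes.

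Transcription factors were expressed about as often as genes in general. Of 680 in the class, 319 (46.9%) were at 1 FPKM or more, next to 46.4% of all genes, and 94 were listed at 0. They were present at moderate levels: 101 stood at 10 FPKM or more, 9 at 50 FPKM or more and 1 at 100 FPKM or more. The 25 highest held 35.1% of the class's summed level. Klf12 lay just below the limit of 1 FPKM, with 0.993 FPKM (174 reads, as its bounds imply).

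The head of the class joined general stress and growth factors with factors of vessel, blood and heart. Atf4, which drives the response to amino acid shortage, was highest at 104 FPKM (101 to 107). Tead2, the partner of the growth regulator Yap, had 84.1 FPKM (81.8 to 86.5) and Ets2 84.0 FPKM (82.2 to 85.8), with bounds that overlap. Hand1 (72.2 FPKM) and Hand2 (54.5 FPKM), basic helix-loop-helix factors best known from heart and extraembryonic mesoderm, were the fourth and the sixth. Between them stood Smad4, the shared mediator of BMP and TGF-beta signals, at 56.4 FPKM. Tal1 at 51.0 FPKM, the unfolded protein factor Xbp1 at 50.7, the cell cycle factor E2f4 at 50.0 and Etv2 at 49.0 formed a plateau in which each overlapped its neighbour. Then came Sox7, a SoxF factor of early vessels, at 48.3 FPKM, and the imprinted Peg3 at 48.1. Fli1 (39.5 FPKM), an ETS factor of vessels and blood, and Hhex (37.9 FPKM), a homeobox factor needed by blood and endothelial progenitors, also ranked among the 25. The remaining members were Hif1a, Ctcf, Klf3, Usf2, Trp53, Yy1, Plagl1, Pbx2, Klf6, Myc and Elk3, from 45.3 down to 27.8 FPKM. Egr1, the 26th, had 27.2 FPKM. Of the 24 neighbouring pairs in this order, 17 had overlapping bounds, so that single places in the order are not firm.

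**Figure D2:**
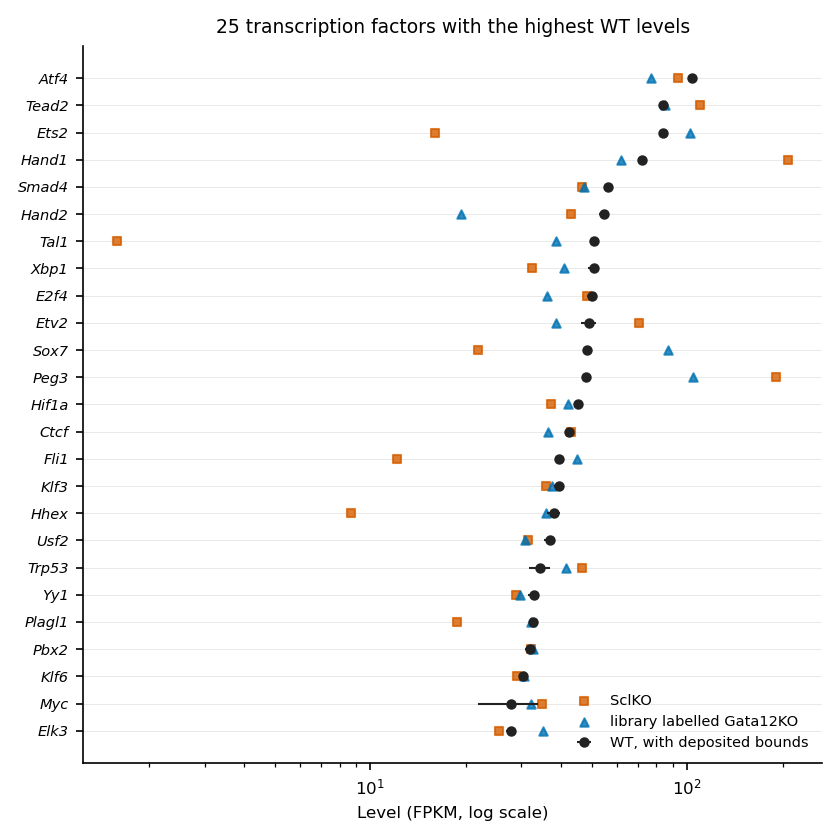
The 25 transcription factors with the highest level in WT, from top to bottom (horizontal axis, FPKM, log scale); black circles with lines are WT with its deposited bounds, orange squares SclKO and blue triangles the library labelled Gata12KO. Tal1, Ets2, Hhex and Fli1 lie far to the left of WT in SclKO, and Hand1 and Peg3 to the right.

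By family, expression was concentrated in a few groups, which were picked after their values were seen. The ETS family had 19 of 26 members at 1 FPKM or more, led by Ets2, Etv2, Fli1 and Elk3 (27.8 FPKM), with Ets1 at 15.8, Erg at 7.91 and Spi1, the myeloid and lymphoid factor, at 6.58 FPKM. All 4 TEAD members were expressed, and Tead2 alone held 80.8% of the family's sum. In the GATA family 5 of 6 were expressed. Gata6 was highest at 16.98 FPKM and Gata2 had 12.05, while Gata3 (6.09), Gata4 (5.57) and the erythroid Gata1 (4.64) were lower and Gata5 had 0.772 FPKM. Of 19 SOX genes 8 were expressed. All 3 SoxF members were among them: Sox7, Sox18 at 14.4 and Sox17 at 4.34 FPKM. Runx1 was the only expressed RUNX gene, at 4.56 FPKM, beside Runx3 at 0.198 and Runx2 at 0.1003 FPKM. Of T-box genes, Tbx20 led with 14.5 FPKM and 4 of 16 were expressed. The Notch effector Hey2 had 20.2 FPKM, ahead of Hey1 at 4.27 and Hes1 at 3.75 FPKM.

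The HOX genes, which record position along the body axis, were expressed almost by cluster. Of the Hoxb cluster 8 of 10 were at 1 FPKM or more, with Hoxb5 at 20.5, Hoxb2 at 10.7, Hoxb6 at 9.16 and Hoxb4 at 8.61 FPKM. Of Hoxa 1 of 11 was, of Hoxc 0 of 9, and of Hoxd 3 of 9, the highest being Hoxd9 at 3.49 FPKM. The Hoxb genes summed to 60.2 FPKM, and Hoxa, Hoxc and Hoxd to 3.15, 1.81 and 9.003 FPKM. Families of other tissues were near 0. None of 9 PAX genes and none of 24 neural and muscle bHLH genes reached 1 FPKM, the highest of them being Pax6 at 0.0842 and Atoh8 at 0.905 FPKM. Of 13 NK homeobox genes, Nkx2-5, the early heart factor, was the only one expressed, at 3.29 FPKM.

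Cofactors and chromatin proteins are not in that class. Several were added after their values were seen, and Id3, Hmga1 and Hmga2 stood above every member of the factor class. Lmo2, the bridge of the Tal1 complex, had 102 FPKM (91.7 to 113), and its partner Ldb1 10.2 FPKM. Cbfb, the partner of the RUNX factors, had 69.8 FPKM, and Zfpm1, the GATA partner FOG1, 18.1 FPKM. Among the Id proteins, which hold basic helix-loop-helix factors off DNA and are BMP targets, Id3 had 235 FPKM, Id2 42.5 and Id1 19.6, and Id4 0.815 FPKM. Hmga1 and Hmga2, chromatin proteins of embryonic cells, had 277 and 137 FPKM.

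Signalling receptors were expressed at close to the background rate, 120 of 270 (44.4%), but 2 of them far exceeded the rest. Ramp2, which makes the calcitonin-like receptor into one for adrenomedullin, had 474 FPKM (464 to 483), rank 63 of all genes. F2r, the thrombin receptor, had 324 FPKM (321 to 328), rank 109. The next group were the receptor kinases and co-receptors of vessels. Tie1 had 64.2 FPKM (62.7 to 65.7) and Tek 62.9 FPKM, with overlapping bounds, followed by Adgra2 at 60.7, a co-receptor of Wnt7 signals, and the VEGF and semaphorin co-receptor Nrp1 at 56.4. Scarb1, which takes up cholesterol from HDL, had 49.3 FPKM, Kdr 42.1 and Igf2r, the clearance receptor for Igf2, 41.1. The endothelial BMP receptor Acvrl1 had 29.2 FPKM and its co-receptor Eng 28.2 FPKM (19.4 to 36.9), whose 3 entries leave wide bounds. The list went on through Lpar6 (27.0), Fgfr1 (23.9), the apelin receptor Aplnr (22.9), Kit (20.1), Bmpr1a (19.2) and Calcrl (18.2) to Igf1r at 17.3 FPKM. The 26th was Nrp2 at 16.96 FPKM. Of 24 neighbouring pairs 18 overlapped. At the limit of 1 FPKM stood Lpar1 at 1.01 and Il13ra1 at 0.994 FPKM. The VEGF receptor Flt1, also a VEGF decoy, had 8.72 FPKM, and the lymphatic Flt4 9.53 FPKM.

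Surface and adhesion molecules were expressed more often, 66 of 99 (66.7%). The class was picked by name, from families that are common on cells and from surface genes of endothelium, so that its share is raised by the choice. The tetraspanins Cd81 (254 FPKM) and Cd63 (207), with Bsg (206), were highest, and Cd24a, common on progenitor cells, had 178 FPKM. Endothelial junction and surface genes followed: Ecscr at 166, Cdh5 at 116, Esam at 88.0, Icam2 at 50.9 and Pecam1 at 48.3 FPKM. Itgb1, the shared beta chain of many matrix integrins, had 88.3 FPKM.

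Ligands were expressed less often than genes in general, 89 of 296 (30.1%), and their sum lay in a handful of genes. The 25 highest held 95.1% of it. The cytokine Mif had 1129 FPKM (1109 to 1149) and the lipid carrier Apoe 1100.2 FPKM (1089 to 1112), with overlapping bounds. Igf2, the growth factor of an imprinted locus, had 785 FPKM (776 to 794), of which 87.9% was on the entry that starts at base 149843386 of chromosome 7. The heparin-binding Mdk had 624 FPKM, Hdgf 222 and Egfl7, secreted by endothelium into its matrix, 184 FPKM. A step down led to Vegfb (63.9 FPKM), Fstl1 (63.2), Dlk1 (54.6), Efna1 (48.5) and Vegfa (46.5). Below them Tgfb1 had 23.97, Rspo3 23.2, Igf1 22.3 and Pdgfb, which recruits pericytes to vessels, 22 FPKM. The last of the 25, Bmp1, had 8.65 FPKM, next to Ccl25 at 8.62. At the limit of 1 FPKM stood Sema5a at 1.05 and Bmp7 at 0.888 FPKM.

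**Figure D3:**
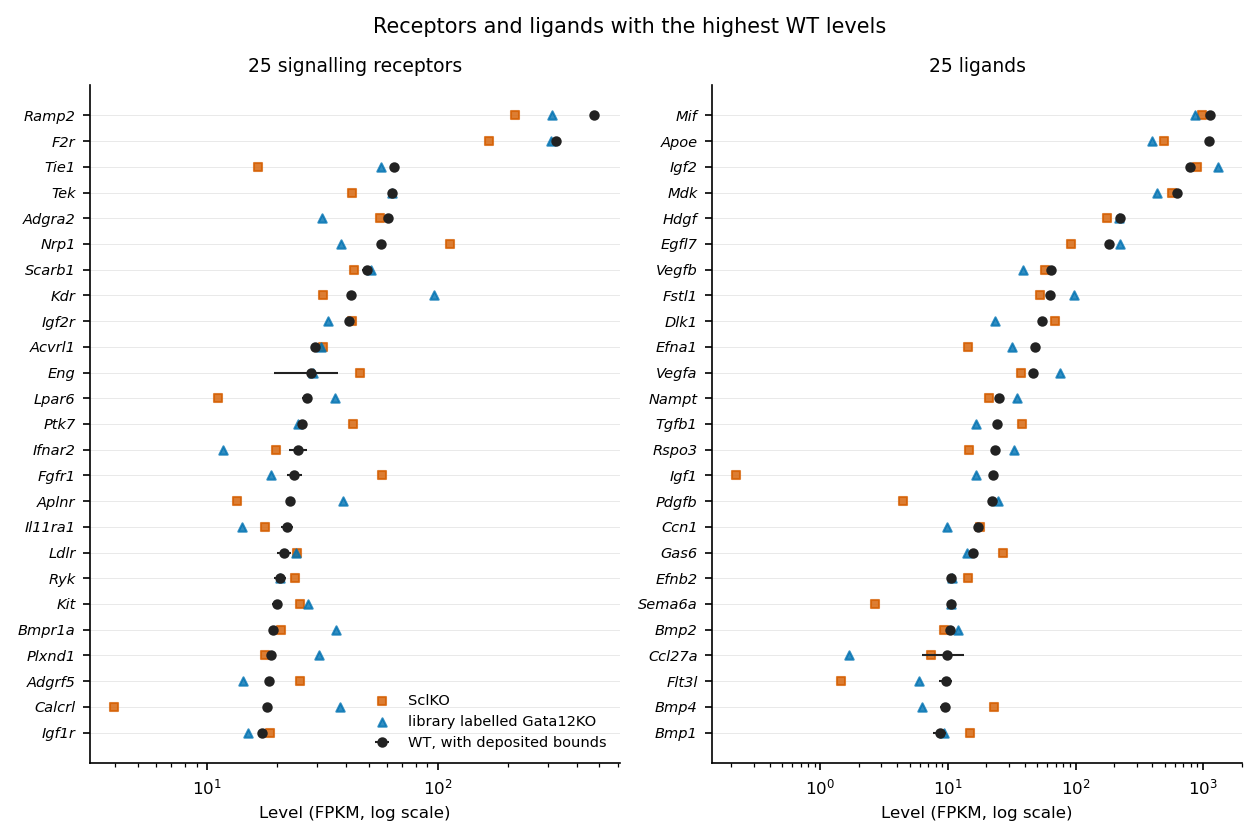
The 25 signalling receptors (left) and the 25 ligands (right) with the highest WT level (horizontal axes, FPKM, log scale); black circles with lines are WT with its deposited bounds, orange squares SclKO and blue triangles the library labelled Gata12KO. Ramp2 and F2r stand apart among receptors, and Mif, Apoe, Igf2 and Mdk among ligands; Igf1 in SclKO is the point farthest from its WT value.

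Setting ligands beside their receptors, for 17 pathways chosen after the values were seen, split the receptors of this library into those with and those without a ligand in it. VEGF was covered on both sides: Vegfb, Vegfa, Pgf and Vegfc were at 1 FPKM or more, and so were all 5 receptors. So were insulin-like growth factors (Igf2 785 and Igf1 22.3 FPKM beside Igf1r 17.3), Efnb2 (10.6) with Ephb4 (10.4), and TGF-beta (Tgfb1 23.97 beside Tgfbr1 12.9 FPKM). For BMP, Bmp2 (10.3) and Bmp4 (9.44 FPKM) stood beside Acvrl1 and Bmpr1a, while Gdf2 and Bmp10, the ligands that bind Acvrl1 most tightly, had 0.0339 FPKM and a listed 0. For FGF, Fgf10 (8.49), Fgf15 (8.00) and Fgf8 (3.11) were expressed beside Fgfr1, whereas Fgf2, long used to grow endothelium, had 0.0621 FPKM. The angiopoietins were one gap. None of 3 reached 1 FPKM, with Angpt2 highest at 0.774, while Tie1 and Tek exceeded 60 FPKM. Apln had 0.886 FPKM beside Aplnr at 22.9, and Adm 4.92 FPKM beside Ramp2 at 474; its other partners Ramp1 and Ramp3 had 0.0134 and 0.703 FPKM. Hedgehog ligands were near 0 (0 of 3 expressed), with the signal transducer Smo at 11.5 FPKM. Of 4 class 3 semaphorins only Sema3f reached 1 FPKM, at 1.25, while Nrp1 stood at 56.4 FPKM. Nrg1 (2.87) and Hbegf (5.81 FPKM) were expressed, but of their receptors Erbb2, which binds no ligand alone, was the only one above the limit, at 1.81 FPKM, with Erbb4 listed at 0. The ligand also exceeded its receptors for PDGF, where Pdgfb had 22 FPKM and the receptors Pdgfra 4.56 and Pdgfrb 2.39. Notch was low on the ligand side: Notch1 had 12.9 FPKM, Jag1 2.64, Jag2 1.32 and Dll4, the tip-cell and arterial ligand, 1.20 FPKM. Kit at 20.1 FPKM stood beside Kitl at 3.02. Cxcl12 and its receptor Cxcr4 were both under the limit (0.692 and 0.602 FPKM), while the scavenging receptor Ackr3 had 5.26 FPKM.

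**Figure D4:**
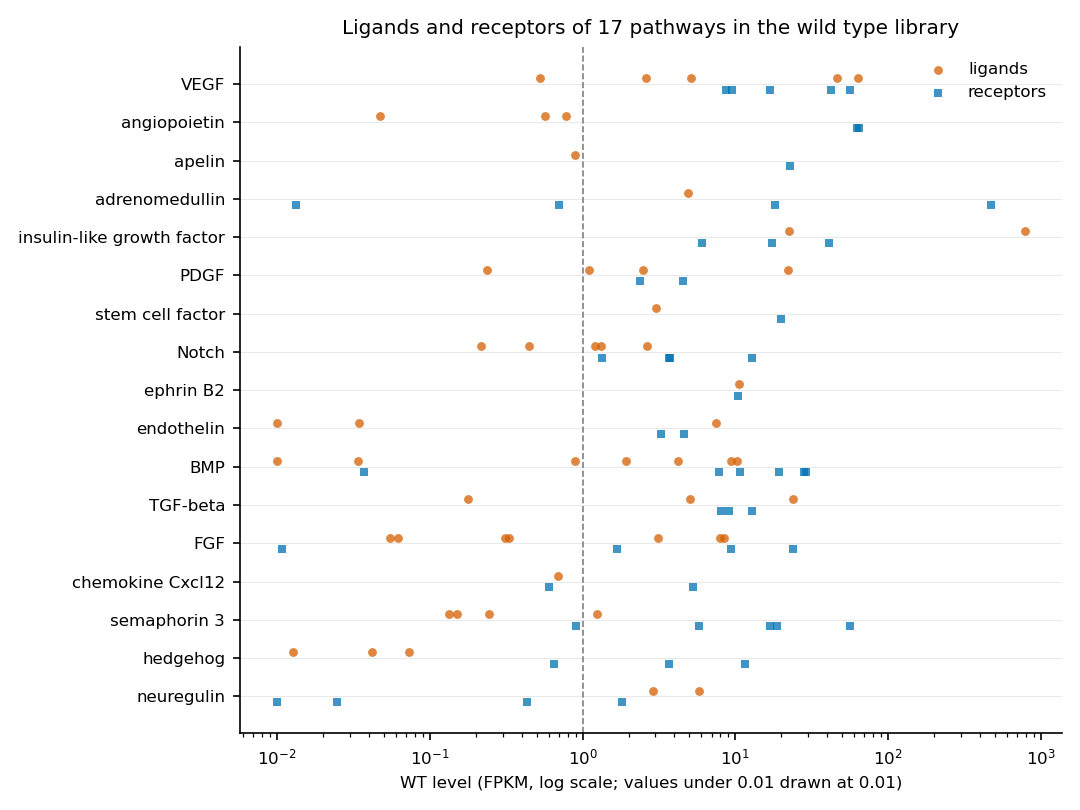
Ligands (orange circles) and receptors (blue squares) of 17 pathways in the WT library (horizontal axis, FPKM, log scale, values under 0.01 drawn at 0.01); the dashed line marks 1 FPKM. For angiopoietins, apelin, hedgehog and Cxcl12 no ligand lies right of the line although a receptor does. For VEGF and insulin-like growth factors both sides do.

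Across 21 lineage lists, 193 of 410 genes were at 1 FPKM or more, close to the share of all genes, but the lists differed widely. In bulk RNA a low list may mean few cells of a kind or little RNA in each, which cannot be told apart. Vessel lists were the fullest, but they overlap: Cdh5, Egfl7, Erg, Fli1 and Kdr are in both the early vessel and the pan-endothelial list. Of 18 hemangioblast and early vessel factors all 18 were expressed, with a median of 30.4 FPKM, and of 30 pan-endothelial genes 28 were, with a median of 16.01, beside 0.589 FPKM over all genes. The 2 below the limit were Clec14a at 0.581 and Vwf, which platelets and mature endothelium store, at 0.399 FPKM. Nos3, the endothelial nitric oxide synthase, had 17.7 FPKM, Cldn5 of tight junctions 10.5, Emcn 9.72 and Robo4 3.27 FPKM. The endocardial list had 12 of 13 expressed and a median of 11.02. It shares Tie1 with the pan-endothelial list, Gata4, Hand2 and Tbx20 with the cardiac factors, and Cdh11 with the smooth muscle and mesenchyme list. Its matrix gene Hapln1 had 64.0 FPKM, Nfatc1, the factor of heart valve endocardium, 13.7, the hyaluronan synthase Has2 12.7 and Nrg1, the signal to heart muscle, 2.87 FPKM.

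Arterial and venous genes were both present, at lower levels. Of 22 arterial and Notch genes 17 were expressed, with a median of 3.20, led by Nrp1, Acvrl1 and Hey2, while the late arterial connexin Gja5 had 0.0216 FPKM and Bmx was listed at 0. Of 12 venous and lymphatic genes 9 were expressed, with a median of 4.60, led by Aplnr, Nrp2 and Ephb4. Nr2f2, the venous factor, had 4.07 FPKM and Prox1, the lymphatic one, 5.13, but the hyaluronan receptor Lyve1 0.536 FPKM. Genes of specialised adult endothelium were expressed in 9 of 25 cases, with a median of 0.238. Slc2a1, the glucose transporter of brain vessels and of many dividing cells, had 86.3 FPKM, and the lipase anchor Gpihbp1 6.42, while Mfsd2a of the blood-brain barrier had 0.0322 FPKM and Sele, Fabp4 and Slco1a4 were listed at 0.

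**Figure D5:**
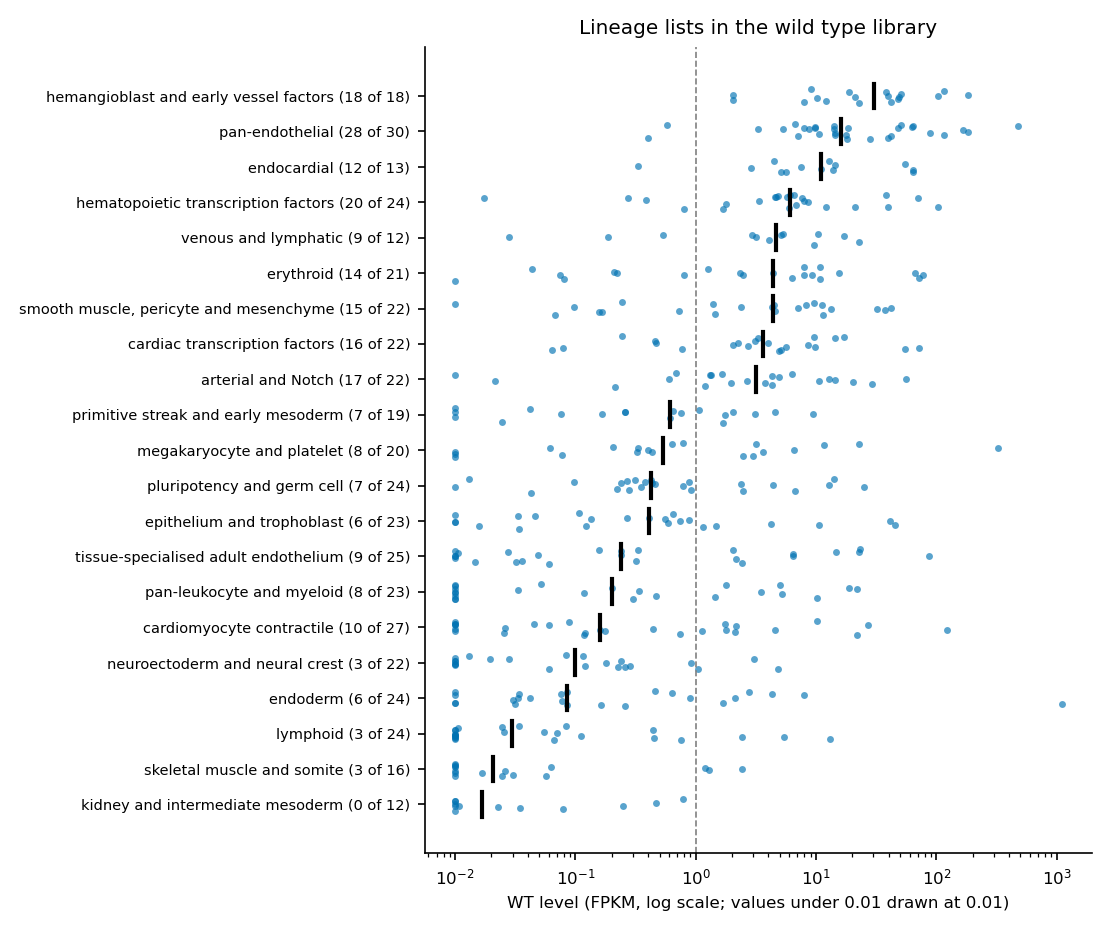
WT level of every measured member of the 21 lineage lists (horizontal axis, FPKM, log scale, values under 0.01 drawn at 0.01), with lists ordered by their median (black bar) and the count at 1 FPKM or more of those measured in brackets; the dashed line marks 1 FPKM. The 4 lists at the top, of early vessel, pan-endothelial, endocardial and blood factor genes, have medians from 6.03 to 30.4 FPKM, and the lymphoid, skeletal muscle and kidney lists 0.0296, 0.0205 and 0.0168 FPKM.

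Blood was represented by its factors and by globins, led by embryonic ones, more than by leukocyte genes. The factor list is not separate from the vessel lists. Erg, Fli1, Gata2, Hhex, Lmo2 and Lyl1 are also in the early vessel list, and Erg and Fli1 in the pan-endothelial one. Of 24 hematopoietic transcription factors 20 were expressed, with a median of 6.03: Lyl1 had 21.3, Nfe2 8.60, Myb 6.77, Runx1 4.56 and Gfi1b 3.34 FPKM, while Gfi1 (0.385), Hoxa9 (0.273) and Hlf (0.0173) of later stem cells were low. Of 21 erythroid genes 14 were expressed. The embryonic globins Hbb-bh1 and Hba-x had 76.8 FPKM (72.1 to 81.6) and 71.3 FPKM. Hbb-y, also embryonic, had 7.89 FPKM, below the level listed for the adult Hba-a2. The adult chains Hba-a1 and Hba-a2 are near-identical, so that their split (5.94e-05 and 15.4 FPKM) is uncertain, and the same holds for the adult beta chains. Klf1, the master factor of red cells, had 0.798 FPKM, and the membrane protein Slc4a1 0.0797 FPKM. Of 20 megakaryocyte and platelet genes 8 were expressed, among them F2r, which endothelium also uses, Itga2b and the chemokine Pf4 at 2.99 FPKM; Gp9 had 0.632 and Ppbp was listed at 0. Of 23 pan-leukocyte and myeloid genes 8 were expressed. The granule enzyme Mpo had 10.2 FPKM, Alox5ap 21.8 and Cd34, which is also counted in the surface class, 18.9 FPKM. Ptprc, the CD45 of all leukocytes, was listed at 0, as were Csf1r, Itgam, Adgre1, Elane, Prtn3 and Ctsg. Of 24 lymphoid genes 3 were expressed, led by Tcf7, a Wnt effector, at 13.0 FPKM, with Cd3e at 0.0253 FPKM.

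Runx1 has 2 start sites in the files, and their bounds overlapped in WT. Entries from the distal start, at base 92826311 of chromosome 16, summed to 2.58 FPKM (2.14 to 3.02), 56.6% of the gene, and those from the proximal start, at base 92697573, to 1.98 FPKM (1.63 to 2.33). In SclKO and in the library labelled Gata12KO the distal entries were listed at 0, with upper bounds of 0.0258 and 0.0144 FPKM, and the proximal ones summed to 0.452 and 0.854 FPKM. The 2 starts share exons, and the split between them is that of the deposited transcript estimates.

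Heart genes divided into factors and muscle. Of 22 cardiac transcription factors and signals 16 were expressed, with a median of 3.63. Besides Hand1 and Hand2 these were Gata6 (16.98), Tbx20 (14.5), Gata4 (5.57), Mef2c (5.09), Nkx2-5 (3.29) and Isl1 (2.26), while Tbx5 (0.468) and Myocd (0.456 FPKM) were under the limit. Hand2, Tbx20 and Gata4 are also counted in the endocardial list. Of 27 contractile genes 10 were expressed, with a median of 0.161. The broadly used Tpm1 had 122.5 FPKM and Tnni1 10.2, but Tnnt2 had 4.57, Actn2 0.0452 and Myh6 0.0597 FPKM, and Myl2 was listed at 0. Smooth muscle and mesenchyme gave 15 of 22 expressed and a median of 4.39. Acta2, the smooth muscle actin that early heart cells also carry, had 42.1 FPKM, Rgs5 32.1, Snai2 11.3 and Col1a2 11.3, whereas Myh11, which defines mature smooth muscle, had 0.0979 FPKM.

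The other lists each had a smaller share at 1 FPKM or more than the 46.4% of all genes. Medians were near 0 for kidney (0.0168), skeletal muscle (0.0205), endoderm (0.0848) and neuroectoderm (0.0996 FPKM). Those of primitive streak (0.613), pluripotency (0.427) and epithelium (0.407) were close to the 0.589 FPKM of all genes. Of 12 kidney and intermediate mesoderm genes none reached 1 FPKM, with Lhx1 highest at 0.777 and Pax2 listed at 0. Of 16 skeletal muscle and somite genes 3 did, with Myod1 at 0.0569 FPKM. Of 22 neuroectoderm genes 3 did (Ncam1 4.87, Nes 3.07 and Otx2 1.05), with Sox1 at 0.115 and Pax6 at 0.0842 FPKM. Of 24 endoderm genes 6 did. Apoe, which many cell types make, accounts for nearly all of that list's level, while Afp had 0.0333, Hnf4a 0.0758 and Foxa2 0.163 FPKM. The primitive streak list had 7 of 19 expressed, with T (Brachyury) at 0.748, Mixl1 at 0.0752 and Mesp1, which marks cardiovascular mesoderm, at 2.06 FPKM. Some stem cell genes were still read. Of 24 pluripotency and germ cell genes 7 were expressed, Pou5f1 at 2.48 FPKM, Dppa4 at 25.2 and Lin28a at 13.98, while Nanog had 0.423 and Sox2 0.906 FPKM. Of 23 epithelial and trophoblast genes 6 were expressed. Krt18 and Krt8, keratins of simple epithelia, had 45.2 and 40.8 FPKM, but Epcam had 1.47 and Cdh1 0.591 FPKM.

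All 23 proliferation genes were expressed, with a median of 49.8 FPKM, from Ccne1 at 4.54 to Pcna, the sliding clamp of replication, at 227 and Mki67 at 153 FPKM. Of 22 immediate early and stress genes, which dissociation can induce, 19 were expressed, with a median of 13.7; Ier2 had 117, Egr1 27.2, Jun 19.6 and Fos 14.7 FPKM. These lists were near the same level in the other libraries, with no member past the limits used below. Of the targeted genes, Tal1 had 1.59 FPKM in SclKO, below WT, whereas Gata1 (5.66 FPKM) and Gata2 (44.9 FPKM) were not below WT in the library from Gata1&2KO cells, which is therefore called the library labelled Gata12KO. Depth implied by the bounds was 28.3M to 50.2M fragments (M, mega), with 31.6M in WT. Genes under 300 nt held 66.7% of the summed FPKM in WT, 72.4% in SclKO and 56.5% in the library labelled Gata12KO, so that a scale set on longer genes differs from the deposited one. WT also had lower Y-linked levels: Eif2s3y stood at 7.26 FPKM beside 34.3 and 39.4, and Ddx3y at 1.25 beside 8.17 and 11.8, with Xist at 0.172 FPKM. The part of these differences in the results below was not tested.

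The order of levels in WT was largely shared with the other libraries, which differ from WT in genotype and in any feature of the culture or library that goes with it. Over the 319 expressed transcription factors, Spearman's rho between WT and SclKO levels was 0.79, and with the library labelled Gata12KO 0.90. These are descriptions across genes of a pair of libraries, and genes are not independent replicates. For receptors they were 0.81 and 0.91 (120 genes), for ligands 0.69 and 0.85 (89 genes), and for all expressed genes 0.93 and 0.95. Of the 25 highest WT factors, 18 were among the 25 highest in SclKO. The 7 others were Ets2, Tal1, Sox7, Fli1, Hhex, Plagl1 and Elk3, in whose place stood Foxo4, Prdm6, Gata6, Msx1, Snai2, Tead1 and Tcf7l1. In the library labelled Gata12KO 23 of the 25 were kept, with Gata2 and Ets1 in place of Hand2 and Yy1. Of the 25 receptors 19 and 21 were kept, and of the 25 ligands 20 and 22.

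For single genes, a gene was called higher or lower in WT where it had 1 FPKM or more in either library, the ratio of (FPKM + 1) was 2-fold or more, and the deposited bounds did not overlap. The words describe these libraries only. Both comparisons use the same WT library, so they are not independent. Between WT and SclKO 468 genes were higher in WT (4.3% of 10874) and 235 lower (2.16%). Between WT and the library labelled Gata12KO 409 were higher (3.8% of 10758) and 81 lower (0.753%). With the libraries rescaled to their sums over genes of 300 nt or more, these splits became 687 and 641, and 359 and 543. With rescaling by the median ratio the second was 329 and 119, and without its trend on transcript length 170 and 150. The balance of calls thus depends on these settings. Rescaling to the sums also raises all values, and so more genes pass the 1 FPKM limit and the pseudocount weighs less.

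Against SclKO, 25 of 67 surface molecules were higher in WT (37.3%, beside 4.3% of all genes) and 3 lower (4.48%, beside 2.16%). Of the factors 33 of 342 were higher (9.65%) and 25 lower (7.31%), of receptors 20 of 128 (15.6%) and 14 (10.9%), and of ligands 17 of 97 (17.5%) and 11 (11.3%). Rescaled to the sums over genes of 300 nt or more, surface molecules gave 26 and 8 of 76, and factors 47 and 55 of 417. Receptors gave 24 and 30 of 170, and ligands 22 and 24 of 138. All genes were also split nearly evenly there, as given above, and of these classes only the surface class kept its balance towards WT. Esam, an endothelial junction protein, had 88.0 FPKM in WT and 14.9 in SclKO, a log2 ratio of 2.49. Ets2 had 84.0 and 16.02 FPKM, a log2 ratio of 2.32, and 102 FPKM in the library labelled Gata12KO. Fli1 had 39.5 and 12.2 FPKM, and 44.8 in the third library. The ETS factors thus did not move as 1 group: Etv2 was not called, with 49.0 FPKM in WT, 70.4 in SclKO and 38.7 in the library labelled Gata12KO, and Elk3 had 27.8, 25.4 and 35.1 FPKM. Igf1 was at 22.3 FPKM in WT, 0.219 in SclKO and 16.5 in the third library, the largest log2 ratio among the 25 ligands (4.26). Pdgfb had 22 FPKM in WT, 4.45 in SclKO and 24.6 in the third. Calcrl had 18.2, 3.96 and 37.6 FPKM, higher in WT than in SclKO and lower in WT than in the library labelled Gata12KO; the second call was lost once the length trend was removed. Among genes lower in WT than in SclKO were Hand1 (72.2 and 209 FPKM), Fgfr1 (23.9 and 57.0), Bmp4 (9.44 and 22.7) and Peg3 (48.1 and 191). Tek (62.9, 42.4 and 62.9 FPKM) and Pecam1 (48.3, 50.4 and 66.5), the markers used to sort all 3 libraries, were not called in either comparison. Of the 28 pan-endothelial genes tested, 19 were higher in WT than in SclKO (67.9%, beside 4.3% of all genes) and none lower (beside 2.16%). All 28 were at 1 FPKM or more in WT, so that the filter favours calls towards WT. The surface class also holds endothelial genes, with Cdh5 in both, so these results are not separate. The 30 measured pan-endothelial genes sum to 1545 FPKM in WT, 702 in SclKO and 1511 in the third library.

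Against the library labelled Gata12KO fewer of these genes differed. Of factors 10 of 329 were higher in WT (3.04%, beside 3.8% of all genes) and 12 lower (3.65%, beside 0.753%). Of receptors 6 of 130 were higher (4.62%) and 3 lower (2.31%), of surface molecules 5 of 66 (7.58%) and 3 (4.55%), and of ligands 12 of 94 (12.8%) and 1 (1.06%). The shares of factors and receptors higher in WT are near that of all genes. Rescaled to the sums over genes of 300 nt or more, factors gave 12 and 33 of 420, and receptors 6 and 23 of 168. Surface molecules gave 10 and 4 of 77, and ligands 12 and 13 of 137. All genes then leaned towards lower in WT, as given above. With the length trend removed, factors gave 9 and 12 and receptors 6 and 1. Surface molecules then gave 2 and 2, and ligands 6 and 3, so that the balance of ligands towards WT depends on that trend. Hand2 had 54.5 FPKM in WT, 43.1 in SclKO and 19.4 in the library labelled Gata12KO, a log2 ratio of 1.45 to the last. Kdr had 42.1, 31.6 and 96.3 FPKM and was lower in WT than in the library labelled Gata12KO (log2 ratio -1.17). Apoe was highest in WT, at 1100.2 FPKM beside 496 and 398. Its call against SclKO was lost once the length trend was removed.

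Genes of several blood lists were often higher in WT than in either other library. The genes tested in these lists were all at 1 FPKM or more in WT, so that the filter favours calls towards WT. Megakaryocyte and platelet genes were higher in WT in 7 of 8 cases against SclKO (87.5%, beside 4.3% of all genes). Against the library labelled Gata12KO 5 of 8 were (62.5%, beside 3.8%), and none were lower in either. Pan-leukocyte and myeloid genes gave the same counts, with 1 lower against the library labelled Gata12KO (12.5%, beside 0.753%). Cd34, also counted in the surface class, was higher in WT in both comparisons. Of 14 erythroid genes tested, 12 were higher in WT than in SclKO (85.7%, beside 4.3% of all genes) and 9 than in the library labelled Gata12KO (64.3%, beside 3.8%), and none lower. Hbb-bh1 had 76.8 FPKM in WT, 0.258 in SclKO and 5.66 in the library labelled Gata12KO. The 21 measured genes summed to 295 FPKM in WT, 25.9 in SclKO and 91.3 in the third library. Hematopoietic factors were higher in WT in 12 of 20 cases against SclKO (60%, beside 4.3% of all genes). Against the library labelled Gata12KO 5 of 20 were (25%, beside 3.8%), with 1 lower in each comparison (Gata3 and Gata2). With the length trend removed, fewer or more of these were higher in WT than in the library labelled Gata12KO. The counts were 4 of 8 megakaryocyte, 3 of 8 leukocyte, 8 of 14 erythroid and 6 of 20 factor genes. Myb had 6.77, 0.143 and 1.06 FPKM, and Spi1 6.58, 0.0312 and 0.954. Nfe2 had 8.60, 0.217 and 1.96 FPKM. Lmo2 and Lyl1 did not follow one pattern: Lyl1 had 21.3, 1.35 and 17.5 FPKM, and Lmo2, which was not called, 102, 58.5 and 64.3. Of the defining blood markers, Ptprc was listed at 0 in WT and SclKO and had 0.00396 FPKM in the third library. CD41- was a sorting criterion, and Itga2b itself had 22.8, 0.333 and 17.6 FPKM. The part of these markers in the other results was not tested. Of 17 cardiac factors, 2 were higher and 2 lower in WT than in SclKO (11.8% each, beside 4.3% and 2.16% of all genes), with a median log2 ratio of -0.62 and sums of 221 FPKM in WT and 400.3 in SclKO. The lower count was 5 with a pseudocount of 0.1 FPKM, and 6 of 20 after rescaling to the sums. Against the third library 2 of 17 were higher (11.8%, beside 3.8% of all genes) and 0 lower. Smooth muscle and mesenchyme genes were lower in WT than in SclKO in 5 of 17 cases (29.4%, beside 2.16% of all genes) and higher in none. Snai2 had 11.3 and 31.8 FPKM, and Pdgfrb 2.39 and 9.16. The lower count was 8 of 19 after rescaling to the sums. Against the library labelled Gata12KO the list went the other way. There 4 of 16 were higher in WT (25%, beside 3.8% of all genes) and 1 lower (6.25%, beside 0.753%). Proliferation genes gave no call in either comparison.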

How the data were processed

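Total RNA of 3 sorted cell pools (WT, SclKO and Gata12KO) gave 1 library each, built with Nugen's Encore Complete RNA-seq kit and sequenced to 50 nt per read with a HiSeq machine, per the labels' protocols. The deposited FPKM and their bounds sit in text attributes of Cufflinks files, per the file headers and source column. The submitters' processing notes name TopHat2 2.0.4, Cufflinks 2.0.1, Cuffdiff, mm9 and hg19, with no roles. Chromosome names and lengths fit mm9. Whether counting used strand is not stated, so overlapping antisense genes cannot be told apart. Taking the bounds as 2 Poisson SD from the FPKM, which held within 1% for 71.4%, 71.1% and 68.9% of fitted entries, they imply depths of 31.6M, 28.3M and 50.2M fragments (M, mega) in WT, SclKO and Gata12KO.

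Accessions were named from the RefSeq gene table (29030 of 29610) and then GENCODE (173), leaving 407 unnamed. FPKM were summed per gene and ratios taken with a pseudocount of 1 FPKM. For the Gata12KO comparison 84 genes whose entries differ were left out. Python 3.11.15, pandas 2.3.3, numpy 2.4.6 and matplotlib 3.10.9 were used. The call rule was run on simulated libraries with planted folds and counting error alone. This checks that the rule works as written, and cannot show how it does with differences between cultures or preparations. Classes were set by symbol patterns, and lists by symbols, and 29 lists were used in all. Named genes were the 5 markers, the 20 highest genes, the 25 highest factors, receptors and ligands, the 10 highest surface molecules, the 4 highest members and defining markers of each list, and the genes next to 1 FPKM. Members and lists were chosen with earlier results of these data known, and other named genes after their values were seen. A few genes under these rules are not reported here. Alternatives varied the summing over entries, length and FPKM minimum, pseudocount, scaling, fold and length trend.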

Additional observations from a re-analysis of the deposited data

Results flagged for a closer look

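The genes left out for length drew most of the summed level of the WT library. The 779 genes with an exon sum under 300 nt held 66.7% of its summed FPKM, and 52 of them were at 1 FPKM or more. Mir682, whose entry is 96 nt long, alone had 367149 FPKM in WT, 412526 in SclKO and 164518 in the library labelled Gata12KO. An entry shorter than the sequenced fragments has a poorly defined FPKM, and what produced these values was not tested. The share was 72.4% in SclKO and 56.5% in the library labelled Gata12KO.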

How the results depend on the processing

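No paired analysis was possible because each group has 1 library. With a minimum of 5 FPKM, the genes at 1 FPKM or more in WT went from 10531 to 6949, transcription factors at 1 FPKM or more in WT to 186, signalling receptors at 1 FPKM or more in WT to 65, ligands at 1 FPKM or more in WT to 36, and the lineage list members at 1 FPKM or more in WT, each list pooled, to 120. The highest entry alone, other length minima, the lower bound, a minimum of 0.5 FPKM or rescaling to a fixed sum kept these 5 counts within 1.5 times. Single levels were less stable: of 621 genes, 46 left their bounds with the highest entry alone (Fgfr1 level in WT 23.9 to 10.98 FPKM, for example) and 551 with the rescaling, which multiplies every level. Of the 25 highest members of a class, 23 to 25 were kept under the highest entry alone, other length minima and the lower bound. The genes past 2-fold between WT and SclKO numbered 703, and 1198 with a pseudocount of 0.1 FPKM, 1328 when rescaled to the sum over genes of 300 nt or more and 127 at 4-fold. The genes past 2-fold between WT and Gata12KO numbered 490, and then 906, 902 and 30, and 320 with the length trend removed, an alternative chosen after seeing the data. The last rescaling moved the median log2 ratio of tested genes from 0.04 to -0.09 and from 0.09 to -0.18. Of the listed genes' calls, 120 against SclKO and 66 against Gata12KO, it ended 2 (Sox7 and Ramp2) and 11 (Dlk1, Cd63, Ccl27a and Ifnar2 among them). Removing the length trend ended 7 (Ramp2 and Apoe among them) and 21 (Calcrl, Flt1, Peg3, Krt8 and Krt18 among them), and the median ratio 0 and 4. None of these calls changed direction. Depth limits levels under about 0.1 FPKM, where few reads stand behind a gene.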
